A study of Mus musculus with 18 samples.

Results

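The splenic CD4+ T cell table of a whole-genome bisulfite sequencing (WGBS) study holds 553467 genomic regions, out of 965237 regions listed for CD4+ and CD11b+ cells together, and all of its regions were used. For each region, mean methylation in wild-type mice was compared with mean methylation in mice heterozygous for the Dnmt3a R878H mutation. Spleens came from 4 mice per genotype, and CD4+ cells were isolated on magnetic columns. The mutant mice were Cre+ Dnmt3a R878H/+, a floxed R878H allele recombined by Vav1-iCre and hence carried by hematopoietic cells in general and not by T cells alone. The controls are labelled Dnmt3a+/+. The study's methods give this name to Cre+ Dnmt3a+/+ and to Cre- Dnmt3a fl-R878H/+ mice collectively, and the labels do not say which of these was sequenced. Mice were young adults, matched for sex and age by the study's general methods, which pooled data from males and females. The labels give no sex for single mice, so the matching could not be checked for these libraries. The CD11b+ table (411770 regions) was used only to show where CD4+ cells differ.

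DNMT3A is a de novo DNA methyltransferase that places methyl groups on cytosines of CpG dinucleotides. R878H, the mouse counterpart of the common R882H substitution of clonal hematopoiesis, lies in the catalytic domain and lowers the activity of the enzyme. In T cells, DNMT3A is known to methylate cytokine and lineage genes as naive CD4+ cells commit to a helper fate, and CpG-dense regions near gene starts are usually kept free of methylation.

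Each value is the authors' mean methylation of one genotype over one region, in percent. A loss is the WT mean minus the R878H/+ mean, in percentage points, and a gain is the opposite. The deposited tables name neither group. The first of the pair of means was read as WT, and every direction given here rests on that reading. The tables give methylation as group means only, with unknown depth, so the means carry no error and no difference could be tested against the spread between mice. A region's mean also does not separate a change within cells from a change in the mix of CD4+ subsets. Regions are parts of the same 8 libraries and are not replicates, and they were delimited by the authors on the same data that give the means. In the labels, 3 of the 4 WT CD4 libraries carry the numbers S118 to S120 and the remaining one S203, whereas the 4 R878H/+ libraries carry S204 to S207. Genotype and this numbering cannot be told apart in group means. Of the CD11b libraries, the WT ones carry S110 to S113 and the R878H/+ ones S114 to S117. Mice 3 and 4 of the latter have further entries, S201 and S202, which makes 6 entries for 4 mice. The numbering is thus tied to genotype differently in CD4 and CD11b cells. Differences between the cell types cannot be told apart from it either.

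The CD4 label was checked on WT methylation around marker genes. The median over regions neighbouring a gene was lower in CD4 than in CD11b cells for 8 of 11 T cell markers, such as Lef1 (74.9% against 90.8%) and Bcl11b (62.8% against 78.9%). It was higher in CD4 cells for the other 3, Cd3e, Cd3g and Zap70. These 11 markers are a selection from longer gene lists used further on. Over all regions of those lists the WT median was 83.8% against 87.5% for TCR genes and 87.1% against 87.4% for T-lineage transcription factors. The median per gene was higher in CD4 cells for 14 of 17 genes of the myeloid marker list, such as Cebpe (91.2% against 74.2%), and for 7 of 10 of the B cell marker list. Both Cd8a (74.7% against 94.0%) and Cd8b1 (87.3% against 92.2%) were lower in CD4 cells.

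The regions shown next carry the contrasts described further on. All are given 5′ to 3′ on the plus strand of mm10 (GRCm38), with each CG dinucleotide in capitals. The first, an intergenic stretch 5769 bases from the start of Ddx6, had the largest loss of all listed CD4 regions. It is followed by a pair of exonic regions with many counted CpG cytosines for their length, which kept their methylation.
Ddx6, lost, chr9:44598942-44599123: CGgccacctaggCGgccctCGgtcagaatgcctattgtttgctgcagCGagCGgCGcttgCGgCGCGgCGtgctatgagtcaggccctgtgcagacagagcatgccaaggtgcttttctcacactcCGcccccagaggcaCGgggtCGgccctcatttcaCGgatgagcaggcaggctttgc
Zfp94 exon, kept, chr7:24302827-24303027: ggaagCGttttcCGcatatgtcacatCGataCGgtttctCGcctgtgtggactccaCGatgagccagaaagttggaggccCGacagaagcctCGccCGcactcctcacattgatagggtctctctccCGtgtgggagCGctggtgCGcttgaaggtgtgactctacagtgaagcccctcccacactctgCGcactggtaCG
Clic6 exon, kept, chr16:92527833-92528105: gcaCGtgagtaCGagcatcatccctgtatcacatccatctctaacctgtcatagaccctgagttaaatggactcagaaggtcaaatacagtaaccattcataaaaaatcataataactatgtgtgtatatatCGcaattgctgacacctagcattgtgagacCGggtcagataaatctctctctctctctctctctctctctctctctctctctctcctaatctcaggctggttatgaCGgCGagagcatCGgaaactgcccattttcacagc
Regions in introns of Lef1 and Satb1, which encode T cell transcription factors, gained methylation in R878H/+ CD4 cells.
Lef1 intron, gained, chr3:131150202-131150331: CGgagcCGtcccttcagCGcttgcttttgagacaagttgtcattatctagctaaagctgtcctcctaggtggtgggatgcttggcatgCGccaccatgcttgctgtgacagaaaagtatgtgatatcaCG
Satb1 intron, gained, chr17:51805677-51805907: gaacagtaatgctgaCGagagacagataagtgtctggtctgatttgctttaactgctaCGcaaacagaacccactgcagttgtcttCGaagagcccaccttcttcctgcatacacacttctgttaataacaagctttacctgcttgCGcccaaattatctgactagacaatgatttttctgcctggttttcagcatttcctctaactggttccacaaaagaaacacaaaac
A region in an intron of Bcl11b lost methylation in CD4 cells while the overlapping CD11b region gained it.
Bcl11b intron, chr12:107950825-107951088: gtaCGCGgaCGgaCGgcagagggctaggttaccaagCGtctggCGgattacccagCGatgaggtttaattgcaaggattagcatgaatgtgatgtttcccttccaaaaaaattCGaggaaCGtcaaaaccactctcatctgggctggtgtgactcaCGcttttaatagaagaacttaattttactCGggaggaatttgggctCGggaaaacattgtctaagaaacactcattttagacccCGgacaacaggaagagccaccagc

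The Ddx6 region fell from 82.5% in WT to 15.9% in R878H/+ CD4 cells, a loss of 66.6 points over 20 CpG cytosines. The Zfp94 region stood at 96.9% in WT and 97.0% in R878H/+, and the Clic6 region at 96.2% and 96.3%. The CpG cytosines per 100 bases of the Zfp94 and Clic6 regions place them, like the Ddx6 region, in the densest 10% of the table. Dense CpGs were thus found at both ends of the range of loss. Of 2040 dense and short regions that were at least 80% methylated in WT (at most 300 bases with at least 15 CpG cytosines), 315 differed by less than 2 points, and their median loss was 5.33 points.

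Across the 553467 regions, median methylation was 89.9% in WT and 82.4% in R878H/+ CD4 cells. The median loss was 6.85 points, with quartiles of 4.33 and 10.6. Methylation was lower in R878H/+ in 528416 regions and higher in 25051, or 4.53%. A loss above 20 points was seen in 34462 regions, or 6.23%. Among the 247222 regions with more than 10 CpG cytosines it was seen in 17025, or 6.89%. These limits on CpG number and difference are those of the study, whose false discovery rate criterion was not applied here. CD11b cells had a median loss of 6.55 points, and 7% of their regions lost over 20 points.

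The loss was largest at intermediate WT methylation. In CD4 regions with WT methylation of 50% to 70% the median loss was 15.0 points, and 30.03% of them lost over 20 points. Regions between 85% and 90% lost 7.72 points, those between 90% and 95% lost 5.88 and those above 95% lost 4.13. Regions under 10% had 4.20% methylation in WT at the median and lost 1.05 points. As a share of the WT level the order was different, since regions at 10% to 30% lost 43.3% of their methylation and those above 95% lost 4.28%. The WT mean enters both the class and the loss, so these classes are descriptive. At 85% to 90%, CD4 cells lost 7.72 points against 6.92 in CD11b cells, while at 30% to 50% they lost 13.4 against 14.5.

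**Figure D1:**
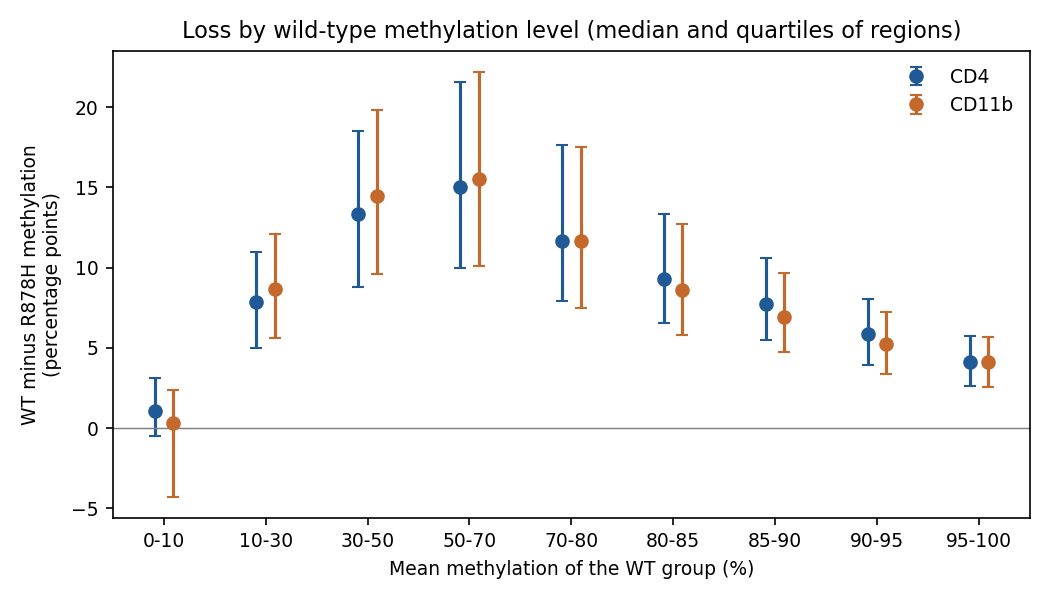
Methylation loss (WT minus R878H/+, percentage points) by the mean methylation of the WT group (%), for CD4 and CD11b regions. Points are medians and bars are quartiles over regions, not errors between mice. Losses peak at 50% to 70% WT methylation in both cell types (15.0 points in CD4).

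CpG density was taken as the table's CpG cytosines per 100 bases. The table counts cytosines of both strands, with a median of 1.5 counted cytosines per CG dinucleotide in the mm10 sequence and never more than 2. Regions were split into 5 classes of nearly equal size, with limits at 1.58, 2.04, 2.65 and 3.83 cytosines per 100 bases. The median loss declined from 7.29 points in the sparsest class to 7.12, 7.00 and 6.75 in the next ones and 5.62 in the densest. The share of regions with a loss above 20 points went the other way, from 2.94% through 4.70%, 6.37% and 8.30% to 8.84%. The share with higher methylation in R878H/+ also grew, from 1.37% to 11.2%. Dense regions therefore held more large losses and more gains than sparse ones, around a lower median.

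Part of the lower median in the densest class went with its WT methylation. In that class 8.81% of regions were under 30% in WT and 26.6% were above 95%, compared with 0.550% and 10.4% in the sparsest class. Among regions at 85% to 95% in WT, the median loss declined from 6.82 to 5.75 points from the sparsest to the densest class, and the share that lost over 20 points rose from 0.667% to 2.96%. At 50% to 70% in WT the order of the medians was the opposite, with 12.4 points in the sparsest and 17.9 in the densest class, and the share that lost over 20 points rose from 15.9% to 42.7%. At 70% to 85% the medians were 9.04 and 13.2 points. A smaller median loss of dense regions was thus seen in highly methylated regions, and dense regions of intermediate methylation lost more. Under 30% in WT the medians were 6.175 points in the sparsest and 3.375 in the densest class. WT methylation there was also lower in the densest class, so this difference cannot be assigned to density.

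**Figure D2:**
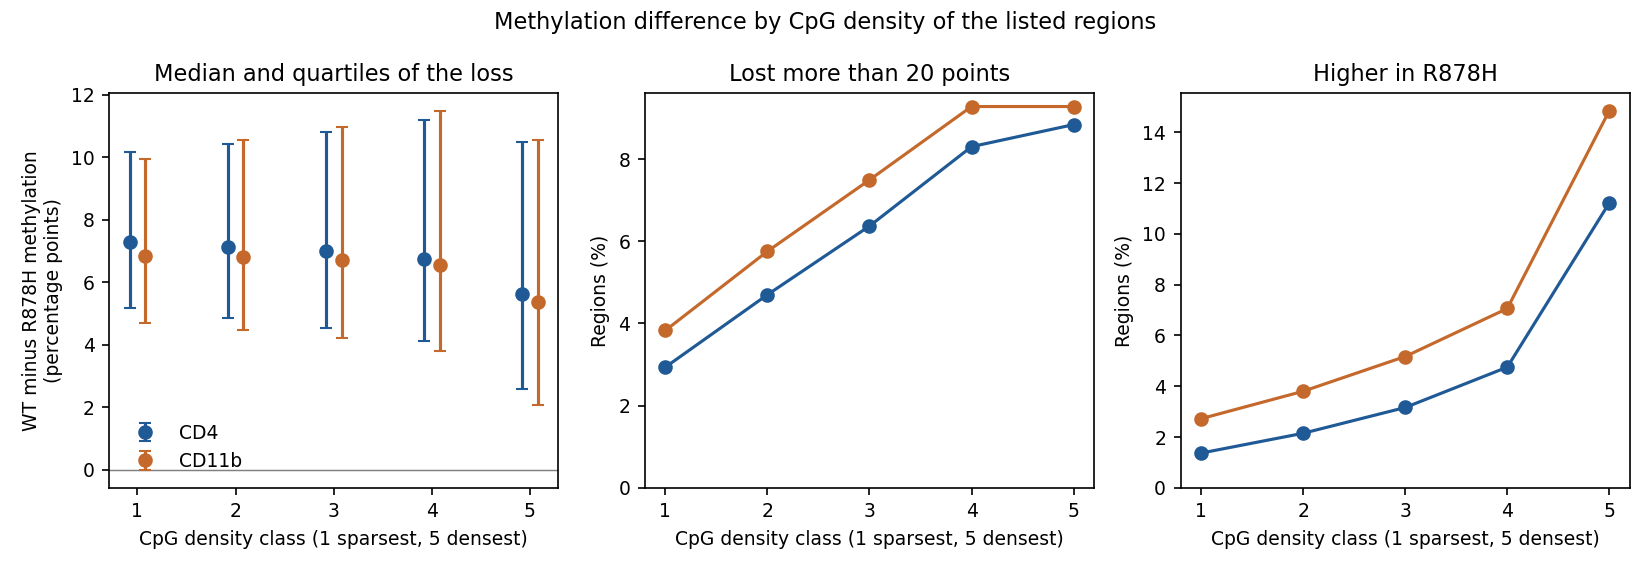
Loss by CpG density class of the listed regions (class 1 sparsest, class 5 densest, limits set on CD4) in CD4 and CD11b cells. The left panel gives medians and quartiles of WT minus R878H/+ methylation in percentage points, and the others the percentage of regions that lost more than 20 points or were higher in R878H/+. In CD4 the median goes from 7.29 to 5.62 points while both percentages increase.

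The same pattern was present in CD11b cells cut at the same limits, where the median loss went from 6.83 to 5.38 points, the share above 20 points from 3.83% to 9.28% and the share higher in R878H/+ from 2.72% to 14.9%. Over all regions of each density class the median loss was larger in CD4 cells, and the shares above 20 points and of gains were larger in CD11b cells. Among regions at 85% to 95% in WT, however, the share above 20 points was larger in CD4 cells in each class. There it was 0.667% in CD4 against 0.415% in CD11b cells in the sparsest class, and 2.96% against 2.14% in the densest. GC content gave a similar order for large losses, which is related to CpG density. In CD4 regions the median loss was 6.25 points in the class of lowest GC content (up to 41.0%) and 7.33 in the highest (above 50.9%). Regions in which over 30.8% of bases were soft-masked as repeats lost 6.15 points, and 2.62% of them lost over 20 points.

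Loss tended to be larger in larger regions, but in different ways for length and for the number of CpGs. CD4 regions had a median length of 498 bases, with quartiles of 328 and 702, and 55.3% of them had exactly 10 CpG cytosines, the smallest number listed. By length, the median loss increased from 5.50 points in regions of up to 291 bases to 7.36 in those above 759 bases. The share higher in R878H/+ fell from 11.6% to 0.943%, and the share that lost over 20 points from 7.504% to 4.68%. Since most regions have 10 CpG cytosines, a long region is mostly a sparse one. By number, the median loss was 6.83 points with 10 CpG cytosines, 6.34 with 11 to 12, 6.98 with 13 to 15, 7.34 with 16 to 20, 8.42 with 21 to 30 and 13.7 in the 2364 regions with more than 30. The share that lost over 20 points was 5.69% with 10 CpG cytosines and 31.8% with more than 30.

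The large losses were most frequent where CpGs were both dense and many. In the sparsest class, regions with 10 CpG cytosines lost 7.48 points and those with 31 or more lost 7.61. In the densest class the corresponding medians were 5.23 and 21.3 points. More than 20 points were lost by 52.5% of the 537 densest regions with 31 or more CpG cytosines, and by 6.94% of those with 10. WT methylation differed along with these classes and was 70.9% at the median in the 537 regions, compared with 92.0% in the densest regions with 10. Among regions at 85% to 95% in WT, those with more than 30 CpG cytosines lost 7.35 points (n = 756) and those with 10 lost 6.55. The largest losses of the sparsest 10% were 43.0 points in an intron of Ssh1 (73.8% to 30.9% over 1123 bases) and 42.4 points in an intron of Gse1. No sparse region was 300 bases or shorter, so none is printed.

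**Figure D3:**
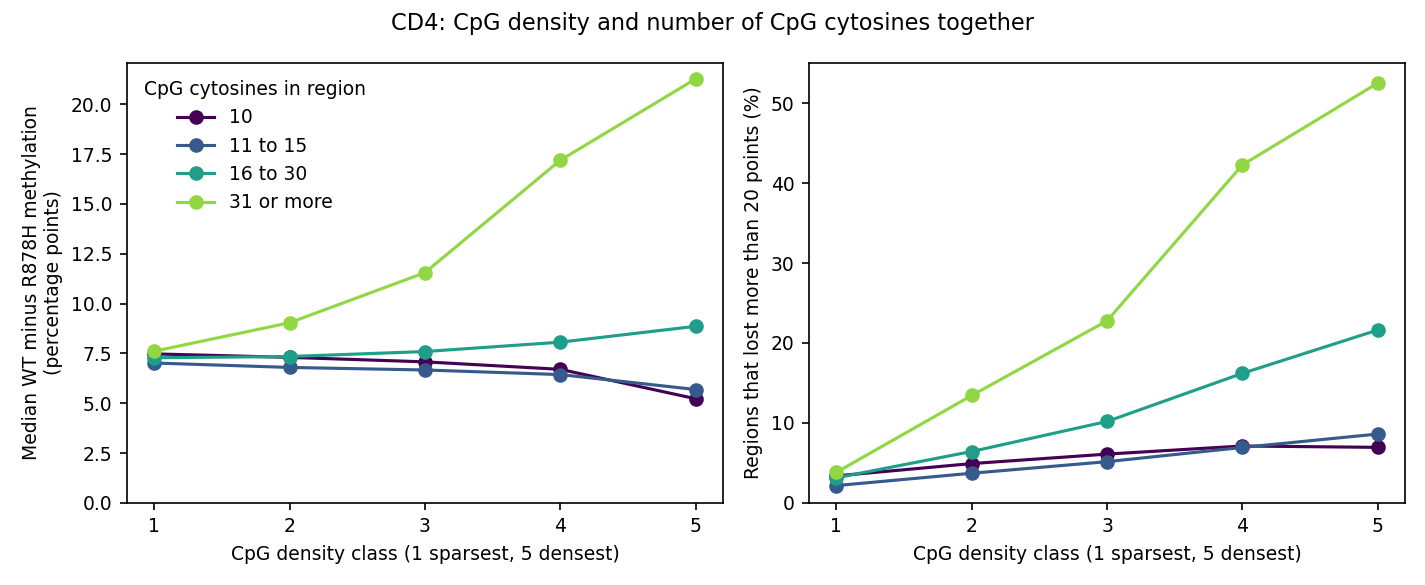
Loss in CD4 regions by CpG density class (1 sparsest, 5 densest) for regions with 10, 11 to 15, 16 to 30 and 31 or more CpG cytosines. The left panel gives the median of WT minus R878H/+ methylation in percentage points, the right panel the percentage of regions that lost more than 20 points. The lines meet in the sparsest class and part in the densest, where medians are 5.23 points for 10 cytosines and 21.3 for 31 or more.

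Neighbouring T cell genes were read from regions within a protein-coding gene or up to 10 kb from it. The loss given for a gene or list is the median of its regions' losses. It need not equal the difference between the WT and R878H/+ medians, which are taken separately. The 6 lists of T cell genes held 130 genes with 4068 CD4 regions. Their median loss was 8.92 points, compared with 6.85 over all regions and 6.89 over the 357109 regions neighbouring any protein-coding gene. A loss above 20 points was seen in 510 of them, or 12.5%, beside the 6.23% over all regions. In CD11b cells the regions near these genes also lost more than all regions (7.94 against 6.55 points), and 11.9% of them lost over 20 points. Of the 129 genes with at least 3 regions, all but 16 had a median loss above that of all regions, and 49 lost more than 10 points. Over all 18635 protein-coding genes with at least 3 regions, 53.7% had a median loss above that of all regions and 13.1% lost more than 10 points. Lists of other kinds also stood above all regions. HOX and stem-cell regulators had a median loss of 9.36 points with 20.97% of regions above 20 points, myeloid markers 9.85 points with 16.3%, and B cell markers 8.02 points with 7.63%. A larger loss than at all regions was therefore shared by the T cell lists with each of the other lists, although Spi1 is in both the helper subset and the myeloid list. WT methylation was lower near the T cell genes (87.4% against 89.9%). Among regions at 85% to 95% in WT the T cell lists lost 7.92 points and all regions 6.48.

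The TCR complex, coreceptors and proximal signalling genes (26 genes, 679 regions) lost 9.42 points at the median. In this list 78 regions, or 11.5%, lost over 20, beside 6.23% of all regions. Of these genes, 25 had a median loss above that of all regions, beside 53.7% of all protein-coding genes with at least 3 regions. Cd6, a costimulatory receptor, lost 12.4 points (86.6% to 71.2% at the medians of its 32 regions), compared with 6.58 in CD11b cells. Sit1, an adaptor that dampens TCR signals, lost 12.9 points. Lck, the kinase that starts TCR signalling, lost 11.4 points and Zap70, the kinase recruited next, lost 10.6. The median loss was 9.99 points for Cd4, 9.90 for Cd8a, 9.64 for Cd28 and 9.55 for Cd3e. Themis, a regulator of thymocyte selection, was lowest with 6.30 points. The region of largest loss in the list lay in an intron of Fyn, a Src family kinase (chr10:39471806-39471999), and went from 79.1% to 32.3%. The overlapping CD11b region went from 69.6% to 43.6%.

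Homing and memory genes (21 genes, 343 regions) lost 9.92 points and Treg and checkpoint genes (21 genes, 518 regions) 9.71, with 14.9% of regions above 20 points in each. Cxcr3, a chemokine receptor of Th1 cells, had the highest median loss of any T cell gene, 22.2 points over 4 regions. Foxp3, the defining transcription factor of Treg cells, lost 17.4 points, from 71.3% to 51.5% at the medians of its 15 regions. Both genes are on the X chromosome, and in CD11b cells they lost 20.2 points over 2 regions and 15.7 over 9. Inhibitory receptors lost 15.3 points at Lag3 and 13.3 at Ctla4, and the costimulator Icos lost 12.8. The interleukin-2 receptor chain Il2ra lost 8.15 points. The lymph node homing receptor Ccr7 lost 11.1 points, and the interleukin-7 receptor Il7r 13.5 over 4 regions. The lowest medians were 3.63 points at Cxcr6 and 4.60 at Ccr8. At Lrrc32, which encodes GARP on activated Treg cells, a promoter region had the largest loss of the Treg list (65.2% to 30.9%).

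The X chromosome had its own level. X-linked promoters (within 1 kb of a start) fell from 44.8% to 24.3% in CD4 cells with a median loss of 15.9 points, compared with 8.67 at autosomal promoters. Outside promoters the medians were 6.99 and 6.78 points. At the Xist locus, the 4 listed CD4 regions were at 43.8% to 52.8% in WT and at 59.0% to 73.0% in R878H/+, a gain of 15.2 to 28.5 points, and the 3 CD11b regions gained 10.4 to 21.8. The Xist promoter is known to be methylated on the active X chromosome and unmethylated on the inactive one. The labels give no sex for single mice, and its part in the X-linked values, Foxp3 and Cxcr3 included, was not tested.

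Helper cytokine genes (19 genes) lost 9.34 points. The lymphotoxin genes Ltb and Lta, which neighbour each other and share regions, lost 14.0 and 13.8 points. The Th2 cytokine Il4 lost 11.6 points at the median of its 16 regions, whose separate medians were 87.6% in WT and 63.7% in R878H/+. Il17a lost 10.9 points over 3 regions, Il2 9.25 over 3 and Tgfb1 8.98. Tnfsf11, which encodes RANKL, lost 7.70 points over 29 regions. Ifng, the signature cytokine of Th1 cells, was lowest with 5.88 points and Il22 followed with 6.08. The largest single loss of the list was 42.2 points in an intergenic region 9109 bases from the start of Il10, from 68.7% to 26.5%.

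Helper subset transcription factors (20 genes, 865 regions) lost 8.92 points. All 20 genes had a median above that of all regions, beside 53.7% of all protein-coding genes with at least 3 regions. Hlx lost 14.1 points and Irf1 13.6. Among the master factors of helper fates, Tbx21 of Th1 cells lost 11.3 points and Bcl6 of follicular helper cells 8.28. Maf lost 8.73 points. Ahr and Pparg were lowest with 7.03 and 7.20. The largest loss near a gene of this list, 55.0 points (64.3% to 9.40%), was assigned to Stat6 by distance but lies in an exon of Nab2.

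T-lineage transcription factors (23 genes, 1462 regions) lost the least of the T cell lists, 7.97 points, and contained both high and low genes. Runx3, which specifies CD8 T cells, lost 13.3 points over 62 regions. Tcf7 lost 12.6 points, Gata3, the master factor of Th2 cells, 12.1, Bcl11b 8.82 and Ets1 6.75. Zbtb7b, which commits cells to the CD4 lineage, lost 4.50 points. An intronic Runx1 region 2507 bases from a start (chr16:92699835-92700444) had the largest loss, from 83.1% to 28.5%, and fell from 74.1% to 15.7% in CD11b cells. Lef1 and Satb1 were the lowest genes of all lists, with 0.114 and 2.92 points.

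**Figure D4:**
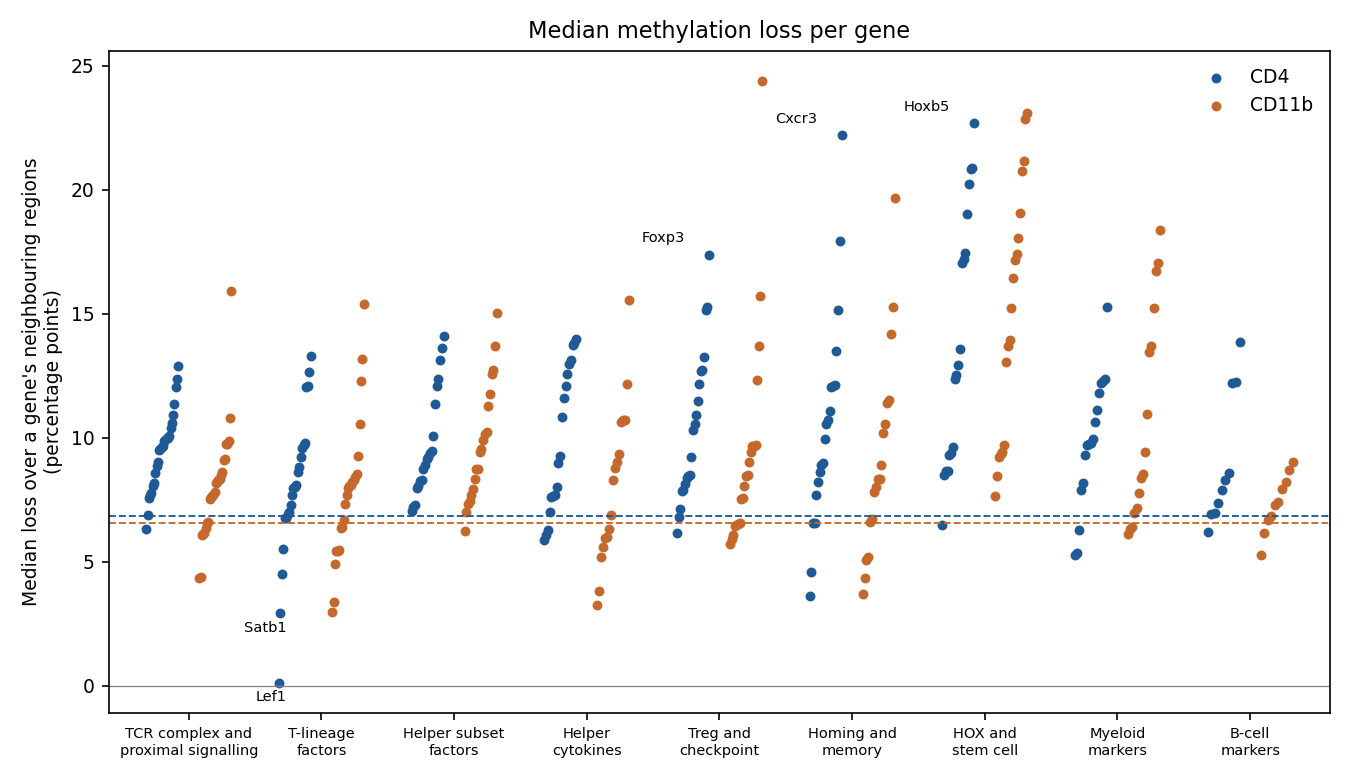
Median loss (WT minus R878H/+, percentage points) over the regions neighbouring each gene, for genes with at least 3 regions, by gene list and cell type. Each point is a gene and the dashed lines are the medians over all regions (6.85 points in CD4, 6.55 in CD11b). Lef1 and Satb1 lie below every other listed gene in CD4 cells.

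Gains above 10 points were seen in 1008 CD4 regions, or 0.182% of the table, and in 56 of the 4068 regions of the T cell lists. Of these, 42 neighboured T-lineage transcription factors and 12 genes of the TCR list. Lef1 had 14 and Satb1 13, more than any other of the 20342 protein-coding genes with a listed region, and no further gene had more than 12. In CD11b cells 2 regions of Lef1 and none of Satb1 gained over 10 points, beside 0.61% of all CD11b regions. Lef1, which encodes a transcription factor needed for T cell development, spans 131110471 to 131224356 on chromosome 3. The first 100 kb from its start was set apart after the values were seen, so the contrast with the rest is descriptive. Within it, 34 of 50 CD4 regions were higher in R878H/+, and outside it 1 of 21 was. The printed Lef1 region rose from 63.4% to 84.8%. The 14 regions with large gains lay 5.80 to 80.7 kb from the start and went from 51.8% in WT to 67.7% in R878H/+ at the median. Of the 28 Lef1 regions under 70% in WT, 21 were higher in R878H/+, and 14 of the 43 more methylated ones were.

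At Satb1, a chromatin organizer of T cells, the gains lay mostly in a shorter stretch. The first 40 kb from the start was likewise set apart after the values were seen. There, 12 of 13 CD4 regions were higher in R878H/+, with medians of 33.4% in WT and 51.1% in R878H/+. The remaining one, at 4.23% in WT, was lower. The largest gain was 24.8 points, from 30.3% to 55.1% (chr17:51823466-51823949), and the printed region rose from 30.8% to 43.2%. Of the other 30 regions, 5 were higher and the median loss was 6.00 points. The 6 CD11b regions in the same 40 kb were at 83.9% to 94.5% in WT and all were lower in R878H/+. At the region that covers a Satb1 start, CD4 cells went from 29.0% to 48.3% and CD11b cells from 91.8% to 86.6%. The protocadherin alpha genes, which share regions, had up to 9, as at Pcdha1, which had 7 in CD11b cells. Gm26992 on the X chromosome, Bcl11b and Cd247 had 6 each, and in CD11b cells they had 4, 6 and 1. The largest gains of Gm26992, 28.5 points in CD4 and 21.8 in CD11b cells, are the values given above for the Xist locus. It is therefore not separate from that locus, and the limit on sex stated there applies. WT methylation over all regions of Lef1, Satb1, Bcl11b and Cd247 was lower in CD4 than in CD11b cells, as at Cd247 (70.7% against 88.3% at the median).

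**Figure D5:**
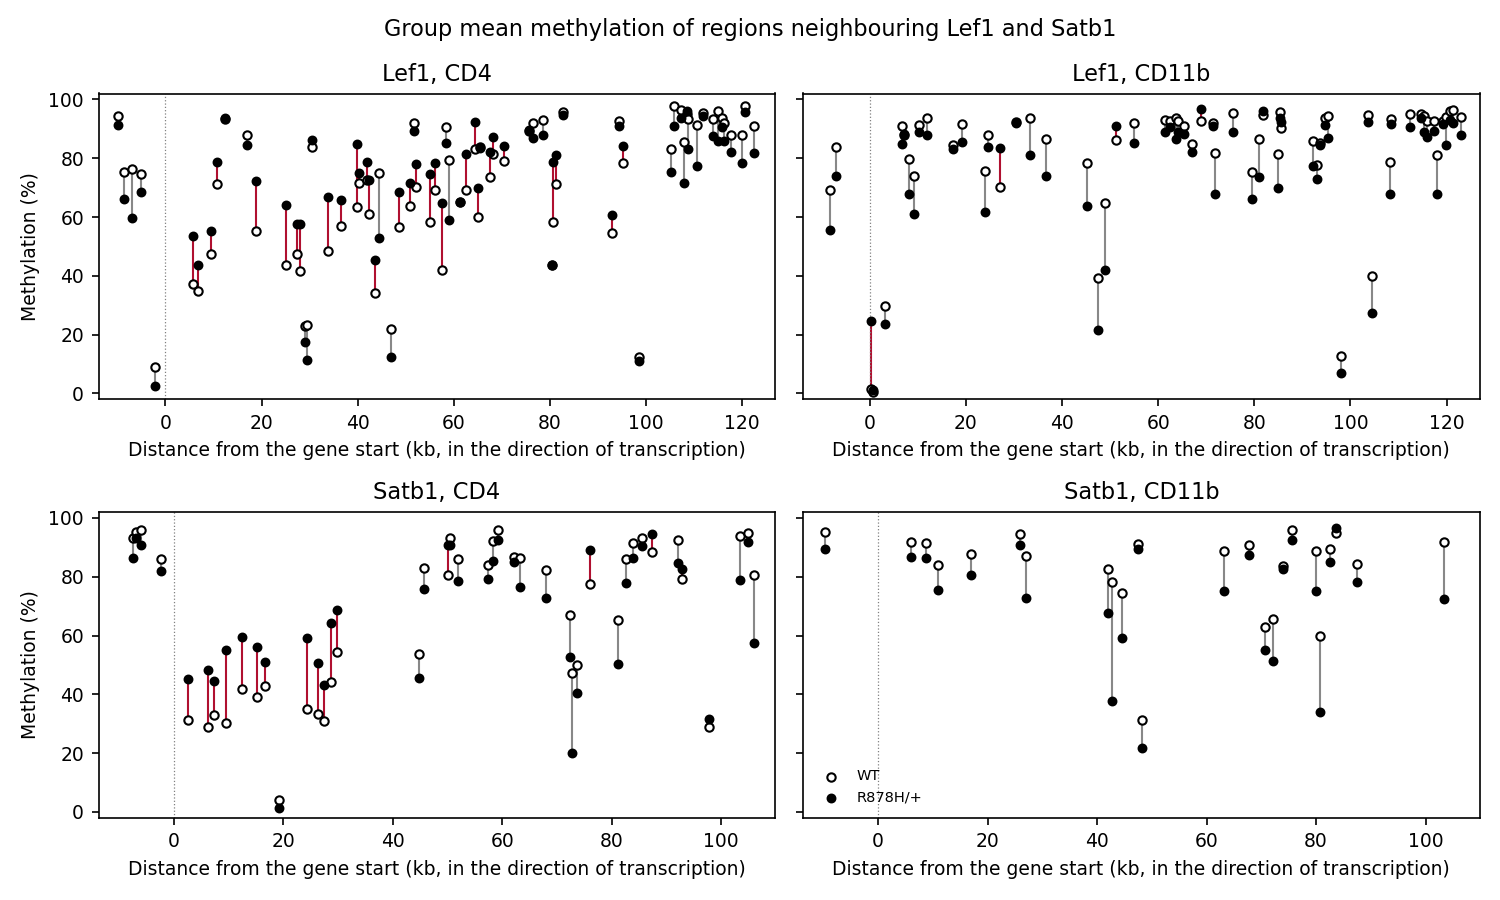
Mean methylation (%) of WT (open circles) and R878H/+ (filled circles) for each listed region near Lef1 and Satb1, by distance from the gene start in kb, in CD4 and CD11b cells. Lines join the means of a region and are red where R878H/+ was higher. In CD4 cells 12 of 13 regions in the first 40 kb of Satb1 rose, and in CD11b cells all 6 fell. The span of 40 kb was chosen after the values were seen.

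Regions of the CD4 and CD11b tables that overlapped by at least 50% of the longer one formed 136879 pairs, which is 24.7% of the CD4 list and 33.2% of the CD11b list. In these pairs CD4 cells lost 8.73 points and CD11b cells 8.25. The median of the paired difference was 0.300 points, with quartiles of -2.63 and 3.28, and CD4 cells lost more in 52.8% of pairs. Of the 17819 pairs with a CD4 loss above 20 points, 62.6% also lost over 20 in CD11b cells, which is 63.7% of the 17504 with such a loss in CD11b. The paired difference declined from 0.597 points in the sparsest class to -0.0155 in the densest. In 1402 pairs WT methylation was over 30 points lower in CD11b than in CD4 cells. There CD4 cells went from 77.2% to 54.9% with a median loss of 19.6 points, and CD11b cells lost 15.6. In the 551 pairs where WT methylation was over 30 points lower in CD4 cells, CD4 cells went from 37.7% to 30.5% and lost 6.85 points. CD11b cells lost 9.525 points there. The WT means chose these pairs and also enter the loss, so these values are descriptive.

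Near T cell genes the shared regions showed differences in both directions. The paired difference was 2.78 points for the 51 shared regions of helper cytokine genes, 1.70 for Treg and checkpoint genes, 1.40 for homing and memory genes, 0.843 for TCR genes, 0.475 for helper subset factors and -0.370 for T-lineage factors. It was 1.08 for myeloid and 0.648 for B cell markers. Among the 10 regions where CD4 cells lost most relative to CD11b cells, 7 had a gain in CD11b cells, including all 3 at Bcl11b. A gain in CD11b cells enlarges the difference that picked these regions, so this count is descriptive. Over all CD11b regions, 6.56% were higher in R878H/+. The printed Bcl11b region went from 65.8% to 52.3% in CD4 and from 67.1% to 78.6% in CD11b cells. A Bcl11b region at 54.9% in WT CD4 cells fell to 37.5%, while CD11b cells went from 42.5% to 58.4%. The Il2rb promoter fell from 82.1% to 59.7% in CD4 cells and was 76.8% and 83.4% in CD11b cells. At Tbx21 an intronic region fell from 82.0% to 63.2% in CD4 cells, and CD11b cells went from 71.1% to 78.0%. A pair of these regions in introns of Rora had a loss in both cell types, with 31.6 and 30.6 points in CD4 cells and 6.71 and 6.90 in CD11b cells.

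In the other direction, an intronic Gata3 region that was already at 29.2% in WT CD4 cells fell to 17.3%, while CD11b cells fell from 67.0% to 24.9%. An exonic region of Spi1, the myeloid factor PU.1, went from 84.5% to 80.2% in CD4 cells and from 66.4% to 33.2% in CD11b cells. A region 1197 bases from the start of Cxcr5 fell from 33.8% to 26.5% in CD4 and from 57.9% to 25.1% in CD11b cells. An intronic Bach2 region rose from 42.0% to 57.4% in CD4 cells and fell from 87.4% to 78.0% in CD11b cells.

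Hoxb5 had the highest median loss of any listed gene in CD4 cells, 22.7 points over 18 regions. Hoxa7, the next of the HOX genes on the list, lost 20.9 over 28. In CD11b cells these genes lost 21.2 and 23.1 points. A Hoxa5 promoter region with 49 CpG cytosines (chr6:52204300-52204768) fell from 84.3% to 21.02%. Of the myeloid markers, Elane lost 15.3 points and Spi1 12.4 in CD4 cells. Adgre1 and Csf3r were lowest with 5.25 and 5.35 points. Of the B cell markers, Cd79b lost 13.8 points and Cd79a 12.2, and Fcer2a (6.18) and Cd22 (6.92) lost the least.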

How the data were processed

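WGBS libraries were prepared from splenic CD4+ and CD11b+ cells of 4 mice per genotype, as the labels give them. The authors mapped reads to mm10 with BISCUIT and delimited regions with metilene, in versions not given in the sources used here. The study's criteria for differentially methylated regions set limits on the number of CpGs, the difference and the false discovery rate, and the last was not applied here. Each deposited table has 1 row per region with the position, the number of CpG cytosines and the authors' mean methylation of each genotype in percent. The columns of the authors' own comparison (q-value, difference and p-values) were not used. There are no columns of single mice, so replicates could not be compared and intervals or tests over mice could not be computed, and the depth is unknown.

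Starts were converted to positions counted from 1. Sequence was read from GRCm38, the assembly of mm10, and genes came from GENCODE release M21, protein-coding only. A promoter reached 1 kb to each side of a start. Regions were assigned to every gene that lay within 10 kb. Regions of the cell types were paired by their best reciprocal overlap, at least 50%, each used once. Chromosomes and length classes were taken as listed, without a filter.

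The members, gene lists and the rule for naming genes were chosen with earlier results of these data known. The rule named 30 T cell and helper genes, the 2 genes of highest and the 2 of lowest median loss in each list (at least 3 regions), the region of largest loss in each list, dense and sparse regions of largest and smallest loss, and the 10 and 5 shared regions of T cell genes at either end of the difference between cell types. Bcl11b, Cd247, Gm26992 and Pcdha1 as gain loci, the spans of 100 kb and 40 kb at Lef1 and Satb1, and the Xist locus were chosen after values were seen. Some genes that the rule names are not reported here. Alternatives varied the CpG number, the threshold, the density measure, the gene window, the overlap and the chromosomes. Procedures were tested on simulated data. Sequences were read with pysam 0.24.0, tables with pandas 2.3.3, and plots were drawn with matplotlib 3.10.9, under python 3.11.15 with numpy 2.4.6.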

Additional observations from a re-analysis of the deposited data

How the results depend on the processing

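With group means alone there is no error between mice, so a change was judged against the interval of the median over regions, or a factor of 1.5 for counts. No result changed its direction under the alternatives given here. The density contrast was the opposite in some subsets described above that were not among these alternatives. At 50% to 70% in WT the medians were 12.4 points in the sparsest and 17.9 in the densest class. With 31 or more CpG cytosines they were 7.61 and 21.3. The median loss of 6.85 points became 8.81 with more than 20 CpG cytosines, 6.95 weighted by CpG cytosines and 6.83 on autosomes. The 17025 regions with a loss above 20 points became 4182 above 30 points, 66465 above 10 points, 3244 with more than 20 CpG cytosines and 34462 with 10 or more, the last chosen after seeing the data. The densest minus the sparsest class (-1.67 points) was -1.50 with CG dinucleotides counted in the sequence, -0.975 at 85% to 95% WT methylation and -1.75 as a percentage of the WT level. The longest minus the shortest class (1.86 points) was 0.940 at 85% to 95% WT methylation. With regions split by rank into 5 classes of cytosine number, it was 0.469, comparing the highest class with the regions that have exactly 10. That highest class is much broader than the regions with more than 30 CpG cytosines, which lost 13.7 points at the median against 6.83 with 10. The T cell lists minus all regions (2.08 points) were 4.16 within 5 kb of a start (5.08 for B cell, 5.43 for myeloid and 10.4 for HOX genes), 2.68 with more than 10 CpG cytosines and 1.45 at 85% to 95% WT methylation. Set against regions neighbouring any protein-coding gene, chosen after seeing the data, the difference was 2.04. The difference between cell types at shared regions was 0.279 to 0.300 points. Leaving out a mouse could not be run, since only group means were used. No paired analysis was possible because the tables hold no values of single mice. Depth is unknown, so small differences in single regions cannot be weighed.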

Other observations

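The mitochondrial genome, which is held to be largely unmethylated, was listed with 21 CD4 regions. Their median was 13.8% in WT and 8.56% in R878H/+, and all 21 were lower in R878H/+, with a median difference of 5.77 points. In CD11b cells all 20 listed mitochondrial regions were higher in R878H/+ (medians of 15.1% and 18.1%). Autosomal regions under 5% in WT differed by 0.269 points in CD4 cells (4545 regions), and 43.6% of these were higher in R878H/+. The mitochondrial difference has no error between mice, and its relation to the losses of nuclear regions was not tested.

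Genes outside the lists, picked after their values were seen, also separated the cell types. Among the 10962 genes with at least 10 regions in each table, the median difference between CD4 and CD11b cells in the loss per gene was 0.197 points. Junb, an AP-1 subunit, lost 18.7 points in CD4 and 5.36 in CD11b cells, where 2 of its 10 regions gained over 10 points. Pim1, a kinase induced by cytokines, lost 19.4 and 7.82. At the other end, Iffo1 lost 6.57 points in CD4 and 19.5 in CD11b cells. Cdca7, which encodes a partner of the chromatin remodeller HELLS, came next and lost 4.71 points in CD4 and 16.5 in CD11b cells. WT methylation differed as well and was 94.7% in CD4 and 86.0% in CD11b cells at Cdca7.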
